A study of Mus musculus with 11 samples.

Results

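Adipocytes treated with tumour necrosis factor (TNF) were compared directly with adipocytes given repeated insulin, a treatment named CI for chronic insulin, by the 3 TNF arrays and the 2 CI arrays of a series of 11. All arrays hold RNA of 3T3-L1 cells, a mouse line of preadipocytes that is turned into adipocytes in culture. The CI cells received 10 nM insulin in 4 additions, 3 on one day and the last on the next morning, as a model of hyperinsulinemia. The TNF cells received TNF at 2 ng/ml for 4 days, as a model of lasting low-dose inflammation. The additions were timed so that all cells had reached the same day after differentiation at harvest, but the exposures differed in length. Untreated adipocytes (3 arrays) are given beside many of the results. The 3 arrays of dexamethasone-treated cells (DEX, 20 nM for 8 days) entered only the estimate of the spread, the choice of probe sets and the limit on dim genes. The labels give the control arrays no treatment but name 0.01% ethanol as the control carrier of dexamethasone, so whether control cells received ethanol is not clear. Of 45101 probe sets, the 34945 with exactly 1 gene symbol in the platform annotation were taken. They name 18193 genes, of which 15625 were bright enough to test and 2568 were too dim.

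TNF acts on adipocytes through receptors that release the transcription factor NF-kappaB from its IkappaB inhibitors, which turns on chemokines, acute-phase proteins and the inhibitors themselves. It is known to lower genes of lipid storage and to blunt the response to insulin. Insulin acts through its receptor, the IRS adaptors and the kinase AKT, which favours glucose uptake and lipid synthesis and silences FOXO factors, and through ERK kinases, which induce their own phosphatases and Sprouty inhibitors. Both treatments are used to make adipocytes insulin resistant, so the comparison asks where these routes leave different transcript levels.

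The cells carried the markers of adipocytes: Adipoq and Fabp4 lay between 20816 and 23388 in every control, CI and TNF array, near the highest intensity of any array (22501 to 25933). Values near that ceiling can hide differences. The summed intensity of 8 tested adipocyte markers was 95043 to 96002 in CI, 96490 to 98227 in control and 77131 to 79303 in TNF. The summed intensity of 6 brown adipocyte markers was 674.5 to 742.9 in CI, 792.6 to 841.5 in control and 662.5 to 706.5 in TNF, and of 5 tested 0 were higher in TNF and 3 lower. Of these markers Zic1 was at most 14.2 in any of the 8 arrays, Ucp1 at most 87.9, Dio2 at most 203 and Cox8b at most 334. The leukocyte marker Ptprc was at most 28.2 and the myeloid integrin Itgam at most 57.7, and both were left out by the limit of 51.6 set on a gene's mean level. Each array had a median intensity of 124.5 to 129.5, and quartiles of log2 values lay within 0.0765 of each other. The 18 probe sets of hybridization spikes all read higher in TNF than in CI, by a median of 0.17 on the log2 scale. The part of that difference in the results was not tested. Whether the arrays of a group hold separate cultures is not in the labels, so p-values here measure a spread that may be only technical.

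The largest differences were in genes of inflammation, far higher in TNF, and in genes of lipid storage and ERK feedback, higher in CI. Levels were compared as log2(intensity + 16), so a difference of 1 is 2-fold and is understated in dim genes. By limma with Benjamini-Hochberg adjustment over all 15625 genes, 5651 genes (36.2%) passed at an adjusted p under 0.05. Of these, 2942 were higher in TNF (18.8% of genes tested) and 2709 lower (17.3%). These shares are the background for the counts of list members in TNF against CI below. With quantile normalization the majority turned, at 2619 higher and 2885 lower, while centring each array on its median gave 3285 higher and 2107 lower. Most differences were small: 4594 of the passing genes (81.3%) differed by less than 1.5-fold. A gene was read from its brightest probe set, and where averaging all its probe sets moved a difference by over 1.5 times, the averaged value follows it. More than 2-fold higher in TNF were 228 genes and more than 2-fold lower 56, and beyond 4-fold the numbers were 26 and 1. The median difference of all genes was -0.03, and the 5th and 95th percentiles were -0.41 and 0.55. In 9458 genes (60.5%) the TNF and CI arrays did not overlap, among them 5626 of the 5651 that passed.

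**Figure D1:**
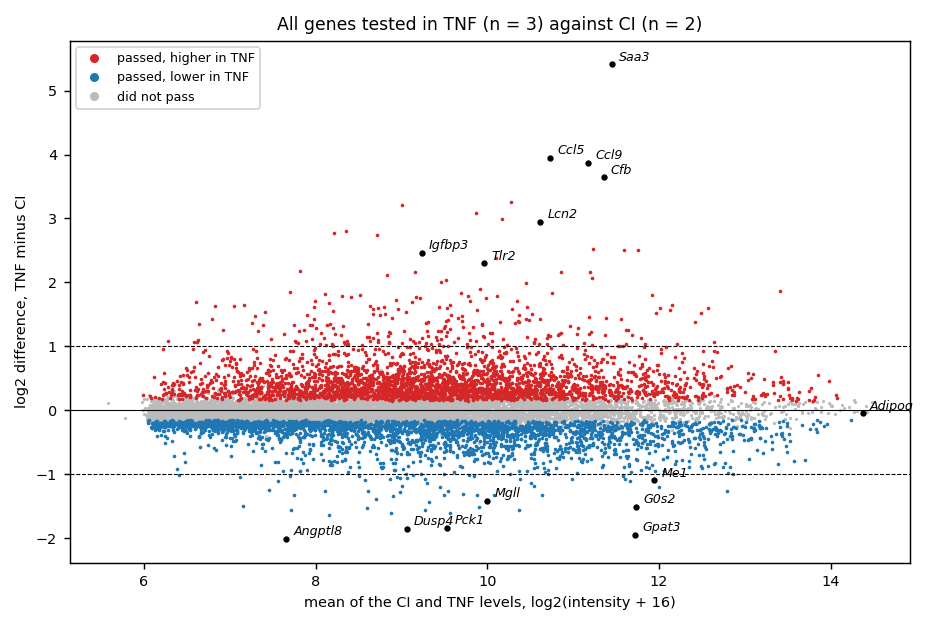
The log2 difference TNF minus CI (y axis) is plotted against the mean level, log2(intensity + 16) (x axis), for 15625 genes; red and blue points passed the test and dashed lines mark 2-fold. Beyond 2-fold, the upper side holds 228 passing genes, up to 5.41 for Saa3, and the lower side 56, down to -2.01 for Angptl8.

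Secreted inflammatory proteins led the list. Saa3, an acute-phase apolipoprotein made by adipocytes and macrophages, had intensities of 415 and 409 in CI and 18293, 19250 and 17006 in TNF, beside 372, 368 and 458 in control. The TNF arrays lay far above the CI and control arrays, and CI lay within the control range. The difference TNF minus CI was 5.41 (SE 0.197, limma adjusted p = 8.76e-11). Lcn2, an iron-siderophore binding protein, was at 474 and 590.1 in CI, 4091, 6606 and 2716 in TNF and 113, 140.2 and 226 in control. Here both treatments lay above control without overlap, and TNF above CI by 2.95 (SE 0.324), with the widest spread between TNF arrays among the 20 leading genes. Hpx, the haem-binding hemopexin, had the same order, at 394 and 389 in CI and 3074, 3711 and 2904 in TNF against 253, 262 and 298 in control. Chil1, a chitinase-like secreted protein, was at 149 and 157 in CI, 226, 183 and 194 in control and 1543, 1670 and 1453 in TNF, so CI lay below control and TNF above it. Lbp (2.75, averaged 1.46), which carries bacterial lipopolysaccharide, was also among the 20, and the long pentraxin Ptx3 (2.16, averaged 1.24) lay just outside them.

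Of 30 acute-phase and iron-binding proteins listed, 17 were bright enough to test, and 10 were higher in TNF and 2 lower (background 18.8% and 17.3%). Their median difference was 0.81. It was 0.14 with dim members included and 1.80 with the limit at the median of all probe sets. A gene dim elsewhere can enter through its TNF values, and the cause of these shifts was not tested. Haptoglobin, Hp, was at 5517 and 5852 in CI and 20354, 21921 and 20288 in TNF, close to the top of the scale, a difference of 1.87. Ceruloplasmin, Cp, a copper-carrying ferroxidase, differed by 1.80. The orosomucoids went the other way: Orm1 and Orm2 were lower in TNF than in CI by -0.78 and -0.99, and Orm3 (-0.20) did not pass.

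Of 17 tested complement genes 6 were higher in TNF and 1 lower, with a median of 0.02 beside -0.03 for all genes. That median was -0.003 with dim members included, where 2 were lower, 0.01 without TNF replicate 1 and 0.006 without TNF replicate 2. Cfb, the protease of the alternative pathway, was at 698 and 749.5 in CI, 1159, 997 and 923 in control and 9514, 9961 and 8293 in TNF (difference 3.65, SE 0.210). The C1 proteases C1s1 (2.53) and C1ra (1.52), their inhibitor Serping1 (1.12) and clusterin, Clu (2.16), an inhibitor of the terminal complex, were also higher in TNF. Properdin, Cfp, which stabilises the alternative convertase, was lower (-0.28, adjusted p = 0.0148), a call lost without CI replicate 1 (adjusted p = 0.0992), without TNF replicate 1 or 2, and over averaged probe sets (-0.16). In the first 3 of these settings 0 complement genes passed downward.

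**Figure D2:**
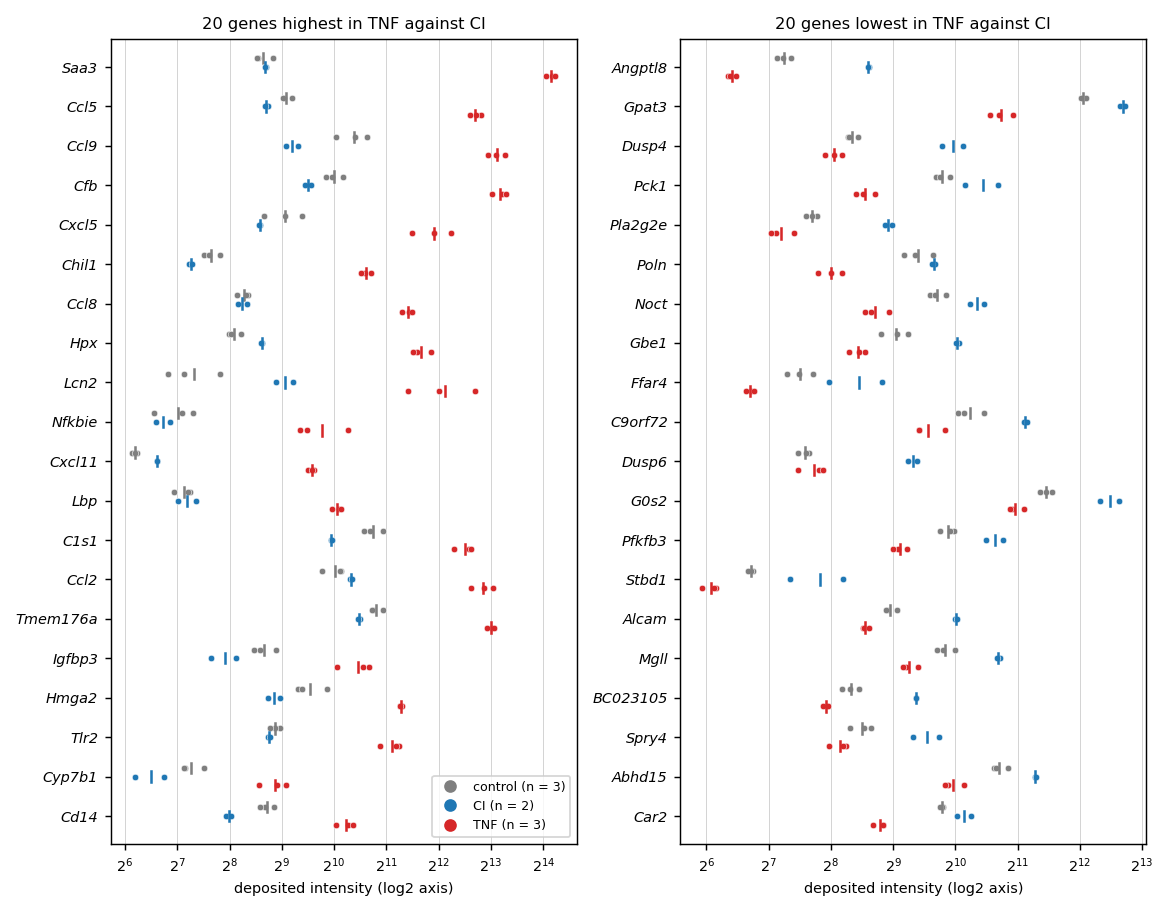
Deposited intensities (log2 x axis) of the 20 genes highest and the 20 lowest in TNF against CI, 1 point per array and a tick at each group's mean. On the left every TNF array lies above every CI and control array; on the right every TNF array lies below every CI array, and Dusp6 is the gene whose TNF arrays overlap control.

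Chemokines, the secreted attractants of leukocytes, were higher in TNF for 14 of 24 tested members and lower for 0, with a median difference of 0.48. That median was 0.33 with dim members included and 0.93 with the stricter limit, and over averaged probe sets it was 1.00, with 1 member lower. In CI against control, chemokines passed 2 times upward and 3 times downward, beside 8.37% and 8.86% of all genes, and in TNF against control 14 times upward and 1 time downward, beside 13.9% and 11.2%. Both of these comparisons use the same control arrays. Ccl5, which attracts T cells and monocytes, was at 424 and 409.9 in CI, 525, 585 and 518 in control and 7134, 6174 and 6672 in TNF. The TNF arrays stood apart, with a difference from CI of 3.94 (SE 0.138, adjusted p = 5.71e-11). Ccl9 was at 638 and 541 in CI, below its control values of 1588, 1352 and 1043, and at 8808, 9811 and 7877 in TNF. So Ccl9 moved away from control in opposite directions, by -1.13 in CI and 2.73 in TNF. Ccl2, the main monocyte attractant, was at 1258 and 1290 in CI, 1125, 1113 and 871 in control and 8449, 7505 and 6248 in TNF, and CI against control did not pass. Among the CXC chemokines, Cxcl5 differed by 3.25 and Cxcl11 by 2.77 (averaged 1.55), whereas Cxcl10 (-0.17, adjusted p = 0.403) did not pass. Cxcl9 passed upward, with 263 and 238 in CI and 879, 646 and 709 in TNF.

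Several of these genes are neighbours. In the RefSeq order of protein-coding genes (GRCm38.p6), Ccl2, Ccl7, Ccl11, Ccl12, Ccl8 and Ccl1 follow each other on chromosome 11, and further along come Ccl5, Ccl9, Ccl6, Ccl3 and Ccl4. In the first row the differences were 2.51, 1.76, 1.43, 3.09 and, at its end, 0.06 for Ccl1, which did not pass. Ccl12 was too dim to test. In the second row they were 3.94, 3.87 and 0.87, then -0.08 and -0.11 for Ccl3 and Ccl4, which did not pass. Genes that passed and genes that did not thus stood side by side in both rows.

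The NF-kappaB system itself was higher in TNF at the level of its subunits, inhibitors and targets. Of 33 tested members 20 were higher and 1 lower, with a median of 0.43. Lower were 2 without CI replicate 1 or 2 and 0 with the stricter limit. Nfkbia, which encodes the inhibitor IkappaB alpha, was at 5026 and 4528 in CI, 4950, 5103 and 4502 in control and 8707, 8139 and 7600 in TNF, a difference of 0.77 (SE 0.0741). Nfkbie, the epsilon inhibitor, was at 116 and 96.4 in CI and 1235, 714 and 649.8 in TNF (2.80). Tnfaip3, the ubiquitin-editing inhibitor A20, was at 393 and 359.9 in CI and 888, 872 and 666 in TNF, beside 346, 296 and 245 in control. All of these feedback inhibitors had TNF arrays above every CI and control array. The A20 partner Tnip1 differed by 1.04, the atypical inhibitor Bcl3 by 1.04 and the kinase Ikbke by 1.64. Of the subunits, Relb (1.24), Nfkb2 (0.73) and Rela (0.28, a call lost without CI replicate 1) were higher in TNF, and Rel was lower (-0.30). The adhesion molecule Vcam1 was at 1089 and 1213 in CI and 5303, 5016 and 4336 in TNF (2.07), while Icam1 (-0.06) and Il6 (0.42, adjusted p = 0.116) did not pass.

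The promoters of members of these lists were searched for the letters of known regulatory motifs, in windows from 250 bases before to 50 bases after the gene start (RefSeq, GRCm38.p6). The kappaB motif, searched on both strands, was present in 4.79% of all 32851 promoters and in 5.33% of those of tested genes. It was present in 13 of 34 promoters of the NF-kappaB list (38.2%), 5 of 17 of the chemokines (29.4%), 3 of 14 of the 20 highest genes (21.4%) and 0 of 18 of the 20 lowest. The 13 belong to 10 genes. The NF-kappaB list, like the interferon and amino acid lists searched below, was made of genes of its pathway. A high share of the motif there follows in part from that choice. Within the NF-kappaB list, the motif was in 6 of 17 genes with a promoter that were higher in TNF. It was also in the 1 that was lower and in 3 of 9 that did not pass. Within the chemokines it was in 3 of 7 and 2 of 9. Promoters of the MHC class I list held it in 4 of 14 (28.6%). They belong to 3 genes, B2m, H2-D1 and H2-K1, none of which passed in TNF against CI. A match describes the letters and not a bound site. Shown for their place in the results are 4 members higher in TNF, 2 of them among the 20 highest, with the match in capitals.
Ccl9: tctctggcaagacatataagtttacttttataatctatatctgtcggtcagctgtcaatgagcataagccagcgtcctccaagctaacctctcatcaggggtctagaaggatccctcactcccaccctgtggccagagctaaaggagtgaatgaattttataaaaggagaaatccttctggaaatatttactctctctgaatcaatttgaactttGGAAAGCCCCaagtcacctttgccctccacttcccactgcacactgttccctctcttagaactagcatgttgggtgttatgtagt
Tlr2: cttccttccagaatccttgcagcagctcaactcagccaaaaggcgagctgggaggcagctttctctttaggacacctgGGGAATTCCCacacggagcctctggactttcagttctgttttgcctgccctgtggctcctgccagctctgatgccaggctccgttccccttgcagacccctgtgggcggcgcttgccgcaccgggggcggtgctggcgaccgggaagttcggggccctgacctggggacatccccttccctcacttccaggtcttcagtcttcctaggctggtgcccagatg
Nfkbia: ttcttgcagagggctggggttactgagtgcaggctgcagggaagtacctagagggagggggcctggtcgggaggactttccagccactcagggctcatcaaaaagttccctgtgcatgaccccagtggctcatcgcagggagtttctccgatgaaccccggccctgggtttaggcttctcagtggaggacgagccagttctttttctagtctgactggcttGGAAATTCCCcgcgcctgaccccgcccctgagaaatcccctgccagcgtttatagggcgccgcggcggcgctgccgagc
Tnfaip3: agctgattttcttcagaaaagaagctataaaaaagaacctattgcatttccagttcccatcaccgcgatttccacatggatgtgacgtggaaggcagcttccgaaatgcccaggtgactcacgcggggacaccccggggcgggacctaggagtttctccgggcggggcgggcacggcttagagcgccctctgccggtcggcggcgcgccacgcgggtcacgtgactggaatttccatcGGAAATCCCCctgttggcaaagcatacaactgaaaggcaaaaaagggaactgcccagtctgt
These windows lie at chr11:83578587-83578886 (minus strand) for Ccl9, chr3:83841559-83841858 (minus strand) for Tlr2, chr12:55492598-55492897 (minus strand) for Nfkbia and chr10:19015361-19015660 (minus strand) for Tnfaip3. In Nfkbia and Tnfaip3 the first base of the match lies 29 and 12 bases before the gene start, and in Tlr2 172 bases before it.

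Receptors that read inflammatory cytokines and bacterial products were mostly higher in TNF. Of 36 tested receptors, JAK-STAT members and their inhibitors, 22 were higher and 1 lower, with a median of 0.48. Lower were 0 without CI replicate 2 or TNF replicate 2, and 2 with quantile normalization or averaged probe sets. Tlr2, a receptor for bacterial lipoproteins, was at 429 and 436 in CI, 502, 466 and 439 in control and 2414, 2331 and 1870 in TNF, a difference of 2.30 (SE 0.131). Cd14, the lipopolysaccharide co-receptor, was at 245 and 263 in CI, 460.1, 409.8 and 385 in control and 1229, 1322 and 1051 in TNF. CI lay below control and TNF above it, without overlap. Il1rap (1.61, averaged 0.71), Osmr (1.44, averaged 0.92), Lifr (1.21, averaged 0.65), Il6st (1.17), Tlr4 (1.05, averaged 0.57) and Ifnar2 (0.75) were also higher in TNF. The receptor chains Il6ra (0.00), Il4ra (0.09), Il15ra (0.12) and Il17ra (0.20) did not pass. Of the TNF receptors, Tnfrsf1b was at 230.5 and 267 in CI and 376, 369.8 and 319 in TNF (0.49, averaged 0.31), while Tnfrsf1a, at 5444 and 5316 and 5319, 5370 and 5343, had overlapping arrays and did not pass (-0.01, adjusted p = 0.905). Socs3, a feedback inhibitor of cytokine and insulin receptors, was at 425 and 388 in CI and 1010, 1026 and 762 in TNF (1.16), and Tlr3, the sensor of double-stranded RNA, was the member lower in TNF (-0.29), a call lost without CI replicate 1 or 2 or TNF replicate 2.

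Leukocyte markers were compared beside these groups. Of 14 macrophage or leukocyte markers 11 could be tested, and 5 were higher in TNF and 2 lower. The summed intensity of the 13 on the array was 4489 to 4824 in CI, 4976 to 5254 in control and 6620 to 6842 in TNF. The rise lay in Lyz2 (1390 and 1598 in CI, 3015, 3030 and 2800 in TNF), Cd74 (298 and 291 and 1071, 981 and 1093), Cd53, Csf1r and Itgb2. Csf1r (0.29, averaged 0.10) and Itgb2 (0.27) lost their calls without CI replicate 1 (0.15 and 0.08), TNF replicate 1, and TNF replicate 2 or 3 respectively. Without CI replicate 2 they were at 0.44 and 0.45. Adgre1 (F4/80) was at 106 and 117 in CI and 90.1, 106 and 93.7 in TNF and did not pass, and Tyrobp and Mpeg1, both macrophage genes, were lower in TNF (-0.17 and -0.39). Tyrobp lost its call in 11 settings, among them leaving out CI replicate 2, any 1 TNF array, or control replicate 1 or 2. In the longer list of 16 tested macrophage and leukocyte genes 7 were higher and 3 lower. Their median of 0.22 turned to -0.01 with dim members included, and was 0.50 with the stricter limit, 0.10 over averaged probe sets and 0.11 without CI replicate 1. In RNA from a whole culture, a change in the number of cells of a type and in RNA per cell cannot be told apart.

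Interferon-induced genes took the opposite direction, lower in TNF than in CI. Of 38 tested, 16 were lower and 3 higher, with a median of -0.24. The 16 became 8 without CI replicate 1 and 10 without CI replicate 2, with the spread of the lone CI array taken from the other groups. The 3 became 5 after centring, with only the TNF and CI arrays, or without DEX replicate 2. Against control, 13 of the 38 were higher in CI and 0 lower (all genes 8.37% and 8.86%). In TNF against control 8 were higher and 2 lower (all genes 13.9% and 11.2%). Rsad2, the antiviral enzyme viperin, was at 5883 and 6473 in CI, 3865, 4001 and 3677 in control and 2913, 2655 and 2523 in TNF. CI lay above and TNF below control without overlap, and the difference was -1.19 (SE 0.0960, adjusted p = 2.44e-07). Usp18, which removes ISG15 from proteins and dampens interferon signalling, was at 7704 and 7768 in CI, 4924, 5378 and 5004 in control and 4470, 4151 and 4130 in TNF (-0.86). The GTPases Mx2 (-0.82), Igtp (-0.74) and Irgm2 (-0.51, a call lost without CI replicate 1) and the RNA sensors Ifih1 (-0.54) and Ddx58 (-0.49, averaged -0.20) were also lower in TNF. Exceptions were Ifit2, at 1520 and 1520 in CI and 2797, 2641 and 2598 in TNF (0.81), the transcription factor Irf1 (0.43), and Oas3 (0.25), a call lost without CI replicate 1 or TNF replicate 1 or 2 and with quantile normalization.

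MHC class I genes and the immunoproteasome, which cut and load peptides for display to T cells, were higher in TNF: 11 of 17 tested members passed upward and 0 downward, with a median of 0.36. Tapbpl, a peptide editor, was at 626 and 642 in CI and 1036, 1078 and 1045 in TNF (0.72), and the proteasome subunits Psmb10, Psmb9 and Psmb8 differed by 0.60, 0.47 and 0.44. The classical heavy chains H2-K1 (0.16) and H2-D1 (0.13) and their partner B2m (0.06) did not pass. Transporter subunits split, as Tap2 passed (0.20) and Tap1 did not (0.12). Tap2 lost its call without CI replicate 1 or 2 or TNF replicate 1 or 2, and with quantile normalization.

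The interferon-stimulated response element, also searched on both strands, was present in 16 of 33 promoters of the interferon list (48.5%), beside 3.44% of all promoters and 2.96% of those of tested genes. Of the 11 lower genes with a promoter 8 held it, of the 14 that did not pass 7, and of the 3 higher 1. The kappaB motif was in 1 of the 33, that of Ifit1. Rsad2 and Igtp, both lower in TNF, are shown with the element in capitals.
Rsad2: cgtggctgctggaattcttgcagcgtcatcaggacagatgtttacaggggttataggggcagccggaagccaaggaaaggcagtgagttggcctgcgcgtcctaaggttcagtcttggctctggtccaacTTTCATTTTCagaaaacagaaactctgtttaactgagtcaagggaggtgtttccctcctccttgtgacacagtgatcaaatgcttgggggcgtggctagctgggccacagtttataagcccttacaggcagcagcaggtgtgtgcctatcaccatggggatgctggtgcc
Igtp: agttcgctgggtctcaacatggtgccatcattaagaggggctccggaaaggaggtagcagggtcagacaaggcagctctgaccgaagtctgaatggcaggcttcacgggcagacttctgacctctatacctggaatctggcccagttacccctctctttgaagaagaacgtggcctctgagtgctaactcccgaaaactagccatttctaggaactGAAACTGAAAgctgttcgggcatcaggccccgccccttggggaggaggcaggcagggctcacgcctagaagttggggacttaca
They lie at chr12:26456403-26456702 (minus strand) for Rsad2 and chr11:58199306-58199605 (plus strand) for Igtp.

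**Figure D3:**
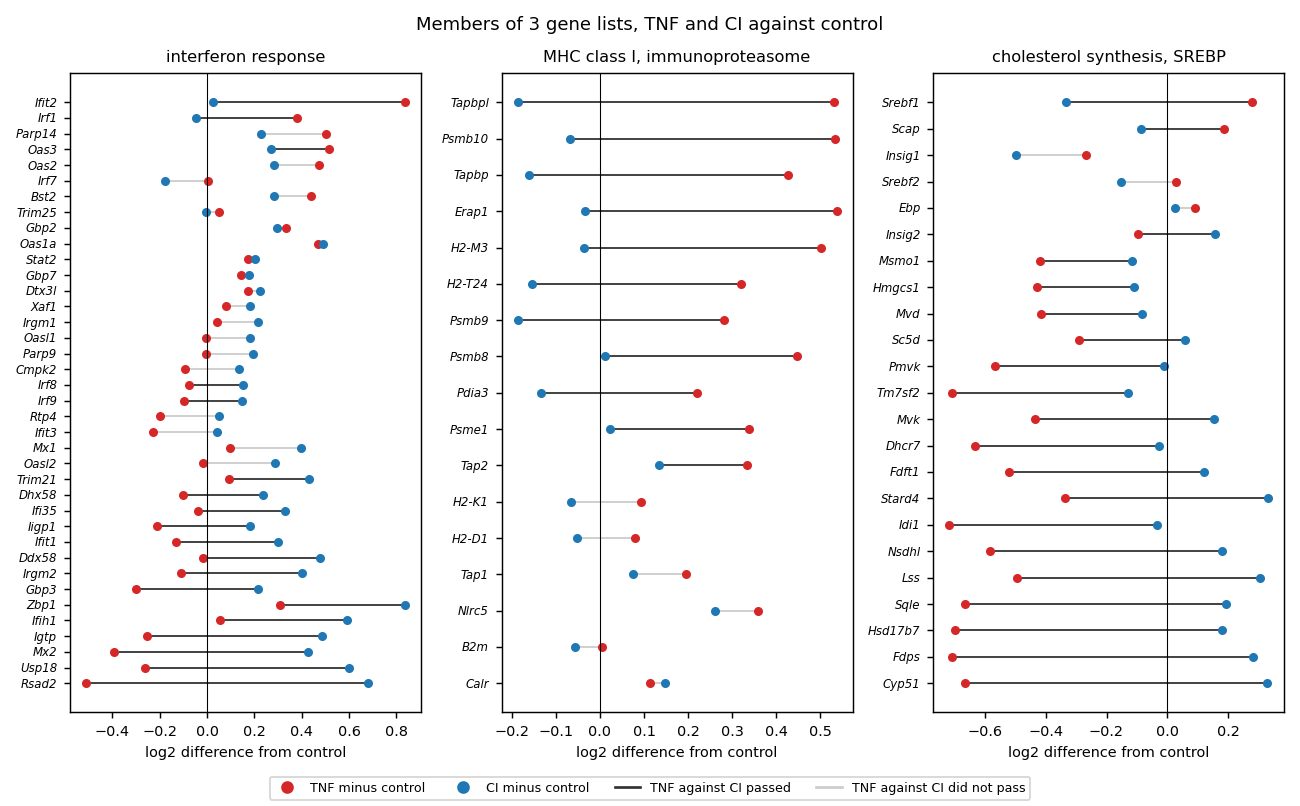
Each tested member of the interferon, MHC class I and cholesterol lists with its log2 difference from control in TNF (red) and CI (blue); the x axis is log2, and dark bars join members that passed in TNF against CI. In 16 interferon genes and 18 cholesterol genes the passing difference has TNF below CI, and in 11 MHC class I genes TNF above CI.

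Feedback genes of the ERK pathway stood among the 20 lowest in TNF against CI. Dusp4, a nuclear phosphatase of ERK, was at 879.8 and 1121 in CI, 309.6, 314 and 346 in control and 290.5, 265 and 240.2 in TNF, a difference of -1.85 (SE 0.105). Dusp6, its cytoplasmic counterpart, was at 671 and 607 in CI and 224, 234 and 178 in TNF, and its TNF arrays overlapped control (177, 202 and 194). The Sprouty inhibitor Spry4 was at 636 and 850 in CI and 251, 304 and 294 in TNF (-1.33). The immediate early gene Fos (-0.93) and the phosphatase Dusp1 (-1.27) were lower in TNF, while Junb (1.17) and Fosl2 (0.76, averaged 0.33) were higher. Egr1 (-0.46, adjusted p = 0.420) did not pass. Over the list, 11 of 36 tested were lower in TNF and 5 higher, with a median of -0.12 (-0.065 without TNF replicate 3). The 5 became 3 without TNF replicate 1. With replicate number added to the model as a block, 11 were higher and 10 lower, with a median of -0.07.

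Glycolysis genes were higher in CI. Of 19 tested, 12 were lower in TNF and 2 higher, with a median difference of -0.31 beside medians of 0.39 in CI and -0.03 in TNF against control. Pfkfb3, which makes the activator of phosphofructokinase, was at 1448 and 1749 in CI, 1007, 865 and 967 in control and 599, 541 and 511 in TNF (-1.51, SE 0.108). Lactate dehydrogenase Ldha was at 7356 and 6796 in CI, 4024, 4128 and 4398 in control and 4615, 5153 and 4804 in TNF, so both treatments lay above control, CI further (-0.54 between them). Pfkp (-0.77), Aldoa (-0.64) and Hk2 (-0.58) were lower in TNF, and Hk1 (0.25) and Eno3 (0.37) higher. Without CI replicate 1 the call for Hk1 was lost, and without CI replicate 2 Eno3 was at 0.22. A pair of glycogen genes stood among the 20 lowest: the branching enzyme Gbe1 (1063 and 1027 in CI, 314, 374 and 349 in TNF) and Stbd1, a glycogen-binding protein, whose CI arrays lay far apart at 162 and 293 but above all TNF arrays (71.4, 69.8 and 60.6).

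Hypoxia-responsive genes showed no common direction: 8 of 27 tested were higher in TNF and 5 lower (3 without CI replicate 1 or TNF replicate 3), and the median of 0.02 turned to -0.02 with quantile normalization, -0.01 over averaged probe sets, -0.03 without CI replicate 2 and -0.007 without TNF replicate 2. It was 0.07 without CI replicate 1 and 0.05 without TNF replicate 1. Over all genes the shares were 18.8% higher and 17.3% lower. Egln3, an oxygen-sensing hydroxylase, was at 1044 and 728 in CI and 401, 432 and 387 in TNF (-1.07), while adrenomedullin, Adm, was at 345 and 328 in CI and 1343, 1511 and 1331 in TNF (2.00).

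Genes of the amino acid response, which ATF4 governs when amino acids or their charged tRNAs run short, were lower in TNF than in CI in 16 of 34 tested members and higher in 2. The median was -0.21, and -0.11 without CI replicate 2, when 10 were lower. The 2 higher became 0 without CI replicate 1, TNF replicate 1 or TNF replicate 3 and with quantile normalization, and 1 without control replicate 2 or CI replicate 2 or with only the TNF and CI arrays. Against control, the median of the list was -0.033 in TNF and 0.229 in CI. Cth, the last enzyme of cysteine synthesis, was at 1370 and 1569 in CI, 638, 578 and 561 in control and 618, 564 and 554 in TNF. The TNF arrays overlapped control and CI stood apart, with a difference of -1.32 (SE 0.0904). The pseudokinase Trib3, an inhibitor of AKT, was at 3779 and 4582 in CI, 3232, 2392 and 2056 in control and 2769, 2128 and 1906 in TNF (-0.89). Psat1 (-0.68), Psph (-0.53) and Phgdh (-0.31), the enzymes of serine synthesis, and Mthfd2 (-0.89) of mitochondrial folate metabolism were lower. Atf4 itself was at -0.42 (averaged -0.245), with -0.70 without CI replicate 1 and -0.13 without CI replicate 2. Its call was lost in 8 settings, among them leaving out CI replicate 2, TNF replicate 2 or 3, or control replicate 2. Asns (-0.12) and Ddit3 (0.10) did not pass. The aminoacyl-tRNA synthetases had 4 of 21 tested lower and 0 higher, a share near the background of 17.3% (2 were lower without CI replicate 2, TNF replicate 1 or TNF replicate 2). There 1 was higher without CI replicate 1 or TNF replicate 1, after centring, with a pseudocount of 64 or over averaged probe sets. Farsb was the largest of these (-0.38).

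The amino acid response element, searched as TGATGNAA on both strands, was in 8 of 35 promoters of that list (22.9%), beside 3.97% of all promoters and 2.57% of those of tested genes. Of 14 lower genes with a promoter 3 held it, and of 13 that did not pass 5. Trib3 is shown from that list, and Angptl8, the lowest gene of the whole comparison, as the 1 promoter of 18 among the 20 lowest that holds it.
Trib3: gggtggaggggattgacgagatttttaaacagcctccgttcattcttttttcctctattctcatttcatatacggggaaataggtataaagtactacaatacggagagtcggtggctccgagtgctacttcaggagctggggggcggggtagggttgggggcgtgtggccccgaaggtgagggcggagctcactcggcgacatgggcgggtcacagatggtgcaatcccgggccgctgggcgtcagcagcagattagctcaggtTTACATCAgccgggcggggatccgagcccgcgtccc
Angptl8: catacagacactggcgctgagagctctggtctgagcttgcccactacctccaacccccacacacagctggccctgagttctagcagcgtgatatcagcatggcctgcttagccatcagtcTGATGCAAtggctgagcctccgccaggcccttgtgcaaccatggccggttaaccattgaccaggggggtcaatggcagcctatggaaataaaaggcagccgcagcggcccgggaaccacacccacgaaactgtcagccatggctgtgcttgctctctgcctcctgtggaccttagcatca
They lie at chr2:152344011-152344310 (minus strand) for Trib3 and chr9:21835260-21835559 (plus strand) for Angptl8.

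Chaperones followed the same direction. Of 19 tested heat shock and cold-inducible genes 11 were lower in TNF and 3 higher (median -0.27). Their median against control was -0.004 in TNF and 0.206 in CI. The mitochondrial chaperonin Hspd1 was at 10580 and 11815 in CI and 7278, 7392 and 7260 in TNF (-0.61), and Hsph1, a nucleotide exchange factor of Hsp70, at 1105 and 929 and 592, 556 and 662. The cold-inducible RNA-binding protein Cirbp was higher in TNF, at 666, 692 and 597, than in CI, at 318 and 287, with TNF within the control range (790.1, 691 and 581). In the endoplasmic reticulum list 9 of 32 tested were lower and 1 higher, beside 17.3% and 18.8% of all genes. Its median was -0.08, and -0.04 without TNF replicate 2. The 1 became 0 without CI replicate 1 or TNF replicate 1 or 2 and over averaged probe sets. Edem1 (-0.68) and Syvn1 (-0.60), which clear misfolded proteins, and the chaperone Hspa5 (-0.31) were lower, and Xbp1 (-0.20) and Herpud1 (-0.11) did not pass.

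Cholesterol synthesis had the lowest median of the 37 lists, -0.58, and -0.41 to -0.71 with 1 CI array left out. Of 23 tested members 18 were lower in TNF and 2 higher, which became 1 over averaged probe sets and 4 with only the TNF and CI arrays. Sqle, the squalene epoxidase, was at 5504 and 4900 in CI, 4699, 4357 and 4579 in control and 2724, 2709 and 3164 in TNF (-0.86, SE 0.0846). Cyp51, which demethylates lanosterol, was at 2454 and 2216 in CI and 1110, 1167 and 1222 in TNF (-0.99), and Fdps, of the farnesyl branch point, differed by -0.99 (averaged -0.52). In all 3, every TNF array lay below control and every CI array above it. Hmgcs1, at the entry of the pathway, differed less (-0.32), and lost its call without CI replicate 1 (adjusted p = 0.0629). Probe sets for Lss disagreed: the one used gave -0.80, and others 0.66 and -0.15, so Lss is uncertain. Of the regulators, Srebf1 was at 1662 and 1349 in CI and 2215, 2278 and 2404 in TNF (0.61), Scap was higher (0.27), though not over averaged probe sets (0.10), and Srebf2 (0.18) and Insig1 (0.23) did not pass. The sterol regulatory element, also searched on both strands, was in 1 of 27 promoters of this list (3.7%), that of Hmgcs1. It was in 1.24% of all promoters and 1.26% of those of tested genes.

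Fatty acid synthesis genes were lower in TNF in 12 of 22 tested and higher in 3, with a median of -0.27. Fasn, the fatty acid synthase, was at 8812 and 7514 in CI, 7679, 7009 and 8692 in control and 4230, 3996 and 5275 in TNF (-0.86, SE 0.114). CI overlapped control, and TNF lay below both. The malic enzyme Me1 was at 5462 and 5997 in CI and 2615, 2769 and 2631 in TNF (-1.10), and Acly (-0.83, averaged -0.45) and Acaca (-0.75), the suppliers of acetyl and malonyl units, were lower as well. The desaturases Fads1 (0.49, averaged 0.22) and Fads2 (0.35) were higher, and Scd1 (-0.02) did not pass. The 3 higher genes became 1 without TNF replicate 1 or 2, and Fads2 lost its call there and without CI replicate 1 or 2.

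Triglyceride assembly was lower in TNF in 14 of 24 tested members and higher in 2 (median -0.32). The 2 became 1 without CI replicate 1 or 2 or TNF replicate 2 or 3, and with quantile normalization. Gpat3, which adds the first fatty acid to glycerol phosphate in adipocytes, was at 6407 and 6790 in CI, 4236, 4368 and 4162 in control and 1674, 1507 and 1951 in TNF, a difference of -1.95 (SE 0.0851, adjusted p = 5.95e-10). Its TNF arrays lay below and its CI arrays above control. Dgat2, of the last step, was at 10551 and 11344 in CI, 7652, 7812 and 8566 in control and 4561, 4353 and 4791 in TNF (-1.26). Pck1, the enzyme of glyceroneogenesis, was at 1640 and 1139 in CI, 962, 823 and 866 in control and 339.6, 418 and 364 in TNF (-1.83, averaged -1.19), and its CI arrays lay wide apart. Lpin1 (-0.94), Gpd1 (-0.80) and Tmem120a (-1.08) were lower, and Acsl5 (0.45) was higher.

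Genes of lipid droplets and lipolysis were lower in TNF in 14 of 24 tested and higher in 3 (median -0.33). G0s2, the inhibitor of adipose triglyceride lipase, was at 6322 and 5141 in CI, 3005, 2630 and 2814 in control and 1917, 1880 and 2199 in TNF (-1.51, SE 0.103). Pnpla2, the lipase itself, was at 6485 and 7037 in CI, 10108, 9749 and 10366 in control and 8367, 8648 and 7649 in TNF. Both treatments lay below control, CI further, with a difference of 0.28 (adjusted p = 0.00635). That call was lost without CI replicate 1 (adjusted p = 0.0856) and over averaged probe sets (0.05). Mgll, which completes lipolysis, was at 1677 and 1628 in CI and 590, 677 and 572 in TNF (-1.41). The receptor Hcar2 (-1.06), which restrains lipolysis, the phosphodiesterase Pde3b (-0.74) and the droplet protein Cidec (-0.84) were lower. Plin4 (0.53) and Plin3 (0.62) were higher, and Lipe (-0.23) did not pass.

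Angptl8, a secreted regulator of lipoprotein lipase, was the lowest gene of all, at 391 and 386 in CI, 164, 141 and 150.5 in control and 81.7, 89.1 and 83.1 in TNF (-2.01, SE 0.0726, adjusted p = 8.63e-11). Among the 19 tested genes of lipase control and fatty acid uptake 5 were lower in TNF and 3 higher, beside 17.3% and 18.8% of all genes. The median was -0.05, and -0.10, -0.09 and -0.03 without CI replicate 2, TNF replicate 2 and TNF replicate 3. The 5 became 3 without CI replicate 1 or 2, TNF replicate 1 or 3, control replicate 2 or 3 or DEX replicate 1 or 3, after centring and with a pseudocount of 1. Lpl (-0.15) lost its call in 14 settings, among them leaving out any 1 CI, TNF or control array or DEX replicate 1 or 3, and Angptl4 (0.16) did not pass. The fatty acid transporter Slc27a1 was at 931, 949 and 846 in TNF and 465 and 488 in CI (0.91), with TNF overlapping control (932, 824 and 776), while Slc27a4 was lower (-0.54). Ffar4, a receptor for long-chain fatty acids, was at 452 and 251 in CI and 105, 108 and 99.7 in TNF (-1.56), its CI arrays wide apart.

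Mitochondrial genes were lower in TNF as a broad set of small differences. Of 48 tested members of respiratory complexes II to V 38 were lower and 3 higher (median -0.27), and of 42 of complex I 26 were lower and 1 higher (median -0.26). Without CI replicate 2 the higher genes were 1 and 0. In complex I they were 2 without TNF replicate 3, after centring, with a pseudocount of 64, with a variance trend and over averaged probe sets. Uqcrfs1, the iron-sulfur subunit of complex III, was at 8564 and 8214 in CI, 7160, 7202 and 7755 in control and 5234, 5131 and 5574 in TNF (-0.66). Ndufs1, the largest subunit of complex I, was at 2681 and 2597 in CI and 1686, 1723 and 1761 in TNF (-0.61). Cox7a2l, a factor of supercomplexes, was higher in TNF, at 3694, 3769 and 3703, than in CI, at 2563 and 2779. Mitochondrial ribosomal proteins were lower in 23 of 46 and higher in 1 (median -0.23; 2 higher in 6 settings with all arrays), led by Mrps22 (-0.82). Cytosolic ribosomal proteins went the other way, with 15 of 28 tested higher in TNF and 0 lower (median 0.15). Those 15 became 9 with quantile normalization and 8 without CI replicate 2, and Rps20 had the largest difference (0.44).

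The pyruvate dehydrogenase and tricarboxylic acid cycle list had 22 of 32 tested lower in TNF and 4 higher (median -0.36). Pdhx, which anchors the dehydrogenase, was at 1237 and 1232 in CI, 955, 882 and 1043 in control and 625, 579 and 608 in TNF (-1.01, SE 0.0693), and the isocitrate dehydrogenase subunit Idh3a at 9400 and 9157 in CI and 4873, 5077 and 5093 in TNF (-0.89, averaged -0.51). The 4 higher genes were Pdk3 (0.40) and Pdk4 (0.45), kinases that switch the dehydrogenase off, its phosphatase Pdp1 (0.49), and Idh2 (0.48, averaged 0.29). Without CI replicate 2 the 4 became 2. Pdp1 lost its call there, and Pdk4 there, without CI replicate 1 or TNF replicate 1 or 2, and with quantile normalization. Fatty acid oxidation had 13 of 25 tested lower and 0 higher (median -0.24; 1 higher without control replicate 1 or with only the TNF and CI arrays), with Cpt2, the inner membrane carnitine transferase, at 4600 and 4063 in CI and 2338, 2273 and 2475 in TNF (-0.87). Coenzyme Q synthesis had 7 of 12 lower (4 without CI replicate 1) and 1 higher (median -0.24), led by Coq7 (-0.79). Brown-fat and mitochondrial biogenesis genes had 9 of 20 lower (3 without CI replicate 1, 5 without CI replicate 2 or with the stricter limit) and 1 higher, among the lower Esrra (-0.58, averaged -0.29). Their median of -0.14 was -0.02 with the stricter limit and -0.09 without CI replicate 2.

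Branched-chain amino acid catabolism was lower than control on both sides by its median, -0.44 in TNF and -0.20 in CI. It passed downward in 24 of 27 tested genes in TNF against control and in 14 in CI against control (all genes 11.2% and 8.86%, with shared control arrays). Upward 1 passed in TNF and 2 in CI (all genes 13.9% and 8.37%). Between TNF and CI 12 were lower and 4 higher, or 2 without CI replicate 2 (median -0.16). Bckdhb, a subunit of the branched-chain dehydrogenase, was at 4249 and 4262 in CI, 3353, 3239 and 3755 in control and 2244, 2381 and 2539 in TNF (-0.83). Unlike the list median, CI lay above control in this gene. Bcat2, the mitochondrial aminotransferase, was lower (-0.59), whereas its cytosolic counterpart Bcat1, at 198 and 217 in CI and 319, 320.5 and 337 in TNF, was higher (0.62, averaged 0.32), as was Bckdk (0.42, averaged 0.25), the kinase that inhibits the dehydrogenase.

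Among adipocyte transcription factors and identity genes 14 of 28 tested were lower in TNF and 4 higher, or 2 over averaged probe sets (median -0.19). Pparg, the master regulator of adipocytes, was at 7450 and 6563 in CI and 6786, 6489 and 6328 in TNF, with overlapping arrays (-0.10, adjusted p = 0.313). Cebpa was lower (-0.70), and Cebpd, which responds to cytokines, was higher (1.49, averaged 0.72). Klf15, a factor of amino acid and lipid metabolism, was at 2412 and 2048 in CI, 1385, 1312 and 1509 in control and 908, 948 and 1050 in TNF (-1.19). Resistin, Retn, was at 12353 and 11410 in CI and 7308, 7644 and 7581 in TNF (-0.66), and carbonic anhydrase Car3 at 6257 and 6574 and 3587, 3779 and 3882, both below its control values of 10572, 10318 and 9927. Adiponectin, Adipoq, did not pass (-0.05, adjusted p = 0.542), on values near the top of the scale.

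Insulin signalling split evenly, with 9 of 37 tested higher in TNF and 9 lower, beside 18.8% and 17.3% of all genes. Its median of -0.03 turned to 0.003 after centring and 0.008 without CI replicate 2. It was -0.001 without CI replicate 1 and -0.09 over averaged probe sets. The insulin-responsive glucose transporter Slc2a4 (GLUT4) was at 2292 and 2367 in CI, 2722, 2380 and 2515 in control and 1757, 1786 and 1658 in TNF. TNF lay below every CI and control array, and the difference from CI was -0.42 (SE 0.0878, limma adjusted p = 0.00146). Its retention factor Tbc1d4 (AS160) was lower too (-0.47), as was the adaptor Grb2 (-0.53, averaged -0.19). Igf1r, the receptor of insulin-like growth factor, was at 452 and 449 in CI, 575, 587 and 606 in control and 858, 916 and 945 in TNF (0.98, averaged 0.57). The probe set used for Insr, the insulin receptor, was at 645 and 565 in CI and 869.9, 869 and 921 in TNF (0.54), but the other 2 gave -0.27 and -0.11 and the mean of all 3 was 0.05, so its direction is uncertain. Irs2 was higher by little (0.20, adjusted p = 0.0134), a call lost without either CI array, without TNF replicate 2 and with quantile normalization, and Irs1 (0.14, adjusted p = 0.173) did not pass. Pik3ca was higher (0.41), a value that became 0.23 to 0.26 where leaving out control replicate 2 or 3 or TNF replicate 2 or 3 made another probe set the brightest.

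FOXO factors and their targets were higher in TNF in 15 of 31 tested and lower in 7 (4 without CI replicate 1), with a median of 0.13. That median was 0.05 over averaged probe sets, 0.08 with quantile normalization, and 0.20 without CI replicate 1, without TNF replicate 3 or with the stricter limit. Beside control, the median was -0.16 in CI and 0.04 in TNF. Pik3ip1, an inhibitor of phosphoinositide 3-kinase, was at 165 and 155 in CI, 259.7, 234 and 221 in control and 455, 442 and 389 in TNF (1.33), so CI lay below and TNF above control. Foxo3 (0.48), Cdkn1b (0.68, averaged 0.36), Txnip (0.67) and the autophagy gene Map1lc3b (0.68) were higher in TNF. Pck1, a target too, was lower.

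Genes of less mature mesenchymal cells were mostly higher in TNF than in CI. Of 21 tested preadipocyte and myofibroblast markers 12 were higher and 0 lower, with a median of 0.40. Lower were 2 without control replicate 1, with only the TNF and CI arrays and with the stricter limit, and 1 without control replicate 3 or any 1 DEX array and in 4 other settings. Smooth muscle actin, Acta2, was at 2695 and 2459 in CI, 3732, 3981 and 4273 in control and 7363, 7967 and 7693 in TNF (1.57, averaged 0.58, SE 0.0693), and the growth factor receptor Pdgfra at 1507 and 1262, 2601, 2153 and 1670 and 4077, 3838 and 3574 (1.46). In both genes CI lay below and TNF above control without overlap. Dlk1 (Pref-1) was higher in TNF than in CI (0.40, averaged 0.25, a call lost without CI replicate 1), at 9009, 9361 and 8030 against 6363 and 6938, but its control values of 11252, 9704 and 8711 reached above both. Over the shorter set of 8 markers used for a check of cell types, 7 of them tested, the summed intensity was 15433 to 15447 in CI, 20811 to 23880 in control and 28103 to 30540 in TNF. In that set, Thy1 was at 892 and 1124 in CI and 1288, 1313 and 1044 in TNF. Every TNF array of Thy1 lay below control (1592, 1353 and 1421). Of the 21 markers, 10 were higher and 3 lower in TNF against control, beside 13.9% and 11.2% of all genes.

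Extracellular matrix genes were divided: 23 of 49 tested were higher in TNF and 10 lower (median 0.14, and 0.09 with quantile normalization, 0.22 with dim members included or with only the TNF and CI arrays). Higher were proteases and their inhibitors, with Timp1 at 506 and 458 in CI and 1942, 2145 and 1488 in TNF (1.90), Mmp9 at 185 and 185 and 563, 424 and 481, and Mmp3 (1.23), Mmp14 (1.01) and Adamts5 (1.29). Fibronectin, Fn1 (1.04), and the crosslinking enzyme Lox (1.13) were also higher. Lower were several collagens: Col15a1 (-1.14), Col5a3 (-0.74, averaged -0.44), Col6a2 (-0.60) and Col5a1 (-0.38), while Col1a1 (-0.12) and Col3a1 (-0.03) did not pass.

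Cell cycle genes were higher in TNF in 22 of 45 tested and lower in 4 (median 0.20), and the 22 became 12 without CI replicate 2. Cyclin D1, Ccnd1, was at 931 and 802 in CI, 1360, 1305 and 1263 in control and 2359, 2443 and 2157 in TNF (1.41, SE 0.0797), its partner Cdk4 differed by 0.73, and the mitotic kinase Cdk1 by 0.79. The proliferation marker Mki67 differed by 0.49 (0.32 without CI replicate 2), and Pcna (0.12) did not pass. Hmga2, a chromatin protein of immature mesenchymal cells, was among the 20 highest, at 501 and 426 in CI, 634, 665 and 931 in control and 2464, 2517 and 2465 in TNF.

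Antioxidant genes had no common direction: 16 of 34 tested were lower in TNF (10 without CI replicate 1, 9 without CI replicate 2) and 9 higher, with a median of -0.15. The pentose phosphate enzymes Pgd (6252 and 5528 in CI, 2880, 2870 and 3358 in TNF, -0.95) and Taldo1 (-0.89) and the mitochondrial peroxiredoxin Prdx3 (-0.74) were lower. The metallothionein Mt2, at 1380 and 1675 in CI and 3271, 4225 and 3341 in TNF (1.23), and the glutathione peroxidase Gpx1, at 2616 and 2470 and 5357, 5464 and 4860 (1.03), were higher. Sod2, a known TNF target, was higher by 0.28, a call lost without CI replicate 1. Of 19 tested clock genes 6 were lower (3 without CI replicate 1) and 1 higher, or 2 without TNF replicate 3 (median -0.10). Over all genes 17.3% were lower and 18.8% higher. Nfil3 (-0.55) and Cry1 (0.46) passed, and Arntl (0.02) and Dbp (0.02) did not. Clock itself (-0.57) had another probe set in the opposite direction (0.18), a mean of all of -0.08, and is uncertain.

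**Figure D4:**
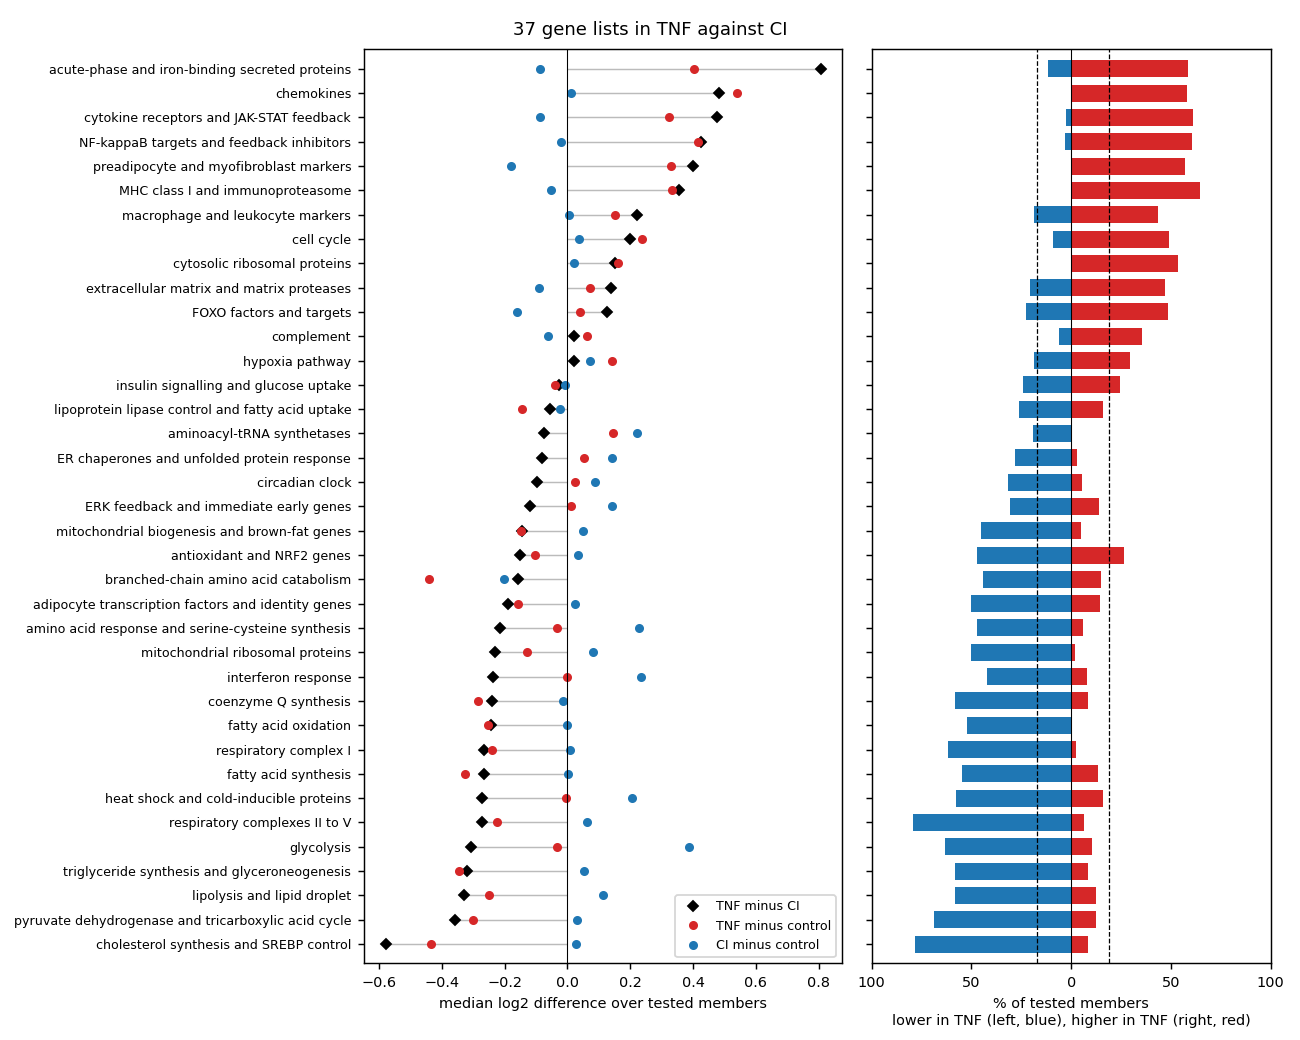
For each of 37 gene lists, the left panel gives the median log2 difference over its tested members for TNF minus CI, TNF minus control and CI minus control (x axis), and the right panel the percent of tested members that passed lower (blue) or higher (red) in TNF against CI, with dashed lines at 17.3% and 18.8% of all genes. Acute-phase proteins lie at the top (0.81) and cholesterol synthesis at the bottom (-0.58).

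Some genes lay on opposite sides of control in the 2 treatments, every TNF array beyond every control array one way and every CI array beyond every control array the other. Above control in TNF and below it in CI, the 8 with the largest smaller distance were Ccl9, Slit2, C1s1, Prss23, Vegfc, Porcn, Igfbp3 and Adm. Slit2, a guidance factor secreted by fat cells, was at 441 and 402 in CI, 774, 740.4 and 722 in control and 1443, 1550 and 1669 in TNF, or -0.80 and 1.04 from control, and TNF minus CI was 1.84 (averaged 0.93). Vegfc, a lymphatic growth factor, was at 217 and 189 in CI, 396, 364 and 304 in control and 1031, 951 and 809 in TNF (-0.76 and 1.35). Igfbp3, which binds insulin-like growth factors, was at 201 and 279, 473, 382 and 356 and 1510, 1620 and 1063 in the same order. Porcn, which lipidates Wnt proteins for secretion, was at 303 and 288 in CI, 524, 494 and 509 in control and 875, 966 and 829.7 in TNF (-0.75 and 0.79).

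Below control in TNF and above it in CI were Pfkfb3, Angptl8, Ffar4, C9orf72, Gpat3, Noct, Pck1 and Gbe1. Noct (nocturnin), a rhythmic phosphatase of NADPH, was at 1402 and 1207 in CI, 771, 821 and 924 in control and 399, 373 and 488 in TNF (0.63 and -0.98). C9orf72, a partner of small GTPases in membrane traffic, was at 2205 and 2265 in CI, 1053, 1129 and 1416 in control and 682, 679 and 912 in TNF (0.90 and -0.65). In Pck1 the CI difference from control (0.62) did not pass the test, although both CI arrays lay above control.

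**Figure D5:**
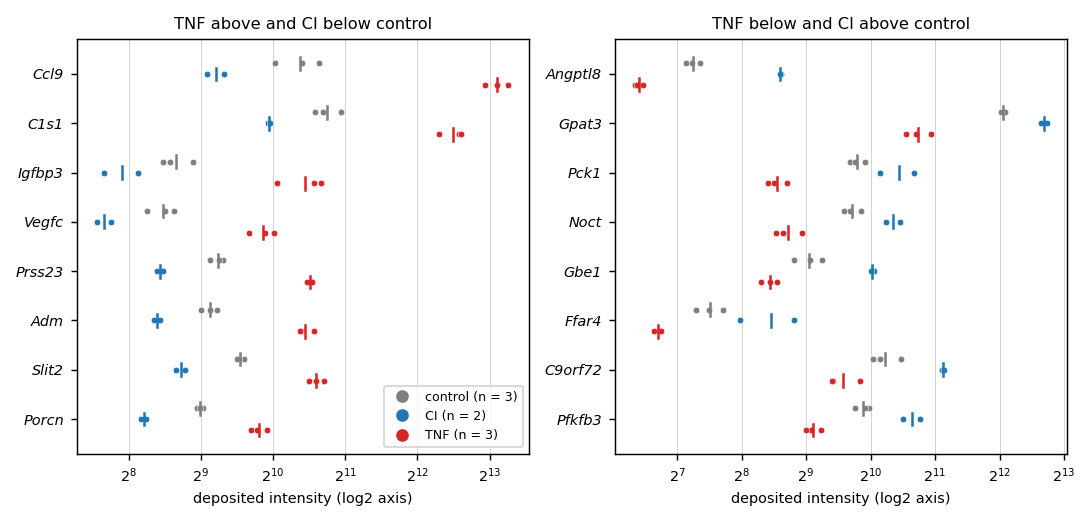
Deposited intensities (log2 x axis) by array of the 16 genes whose TNF and CI arrays lie on opposite sides of control, with a tick at each group's mean. The genes were chosen by this rule, so the control arrays lie between the TNF and CI arrays in every gene shown.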

How the data were processed

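Expression was measured on 11 Affymetrix arrays (3 control, 2 CI, 3 TNF, 3 DEX), with groups and replicate numbers from the sample titles. The authors deposited linear intensity values for 45101 probe sets. The background correction, summary and scaling of probe sets are not given in the sources used here. Quartiles of log2 values lay within 0.1, so no further normalization was applied.

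Of the probe sets, 64 are Affymetrix controls, 932 have several gene symbols and 9160 are not listed with a gene. Of the symbols, 34741 matched a gene identifier and 0 changed. Each gene was taken from its brightest probe set by the mean of log2(intensity + 16) over all arrays, and genes under the 25th percentile of probe sets were left out. TNF and CI were compared by the two-sided moderated test of limma (version 3.58.1, R version 4.3.3) in a model of 4 group means over the 11 arrays, adjusted by Benjamini-Hochberg over 15625 genes; control comparisons came from the same fit, and errors beside differences are standard errors. The script was tested on simulated data. The number of arrays limits the precision.

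The text names the 20 highest and 20 lowest genes that passed without overlap of arrays, up to 6 members per list by adjusted p, up to 8 genes in each direction on opposite sides of control, 22 genes listed by name, and further members, chosen after their values were seen, where they account for a list. The 37 lists had 1181 entries, 1078 on the array. Members and lists were chosen with earlier results of these data known. Promoter sequences are from RefSeq. Deviations from the group means of TNF and CI arrays with the same replicate number correlated at -0.10 and 0.17. The deviations of 2 CI arrays mirror each other, so these values cannot decide whether replicate numbers pair the arrays. The main model used no pairing.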

Additional observations from a re-analysis of the deposited data

How the results depend on the processing

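Counts over all genes were recomputed in 22 other settings: centring, quantile normalization, pseudocounts of 1 and 64, no filter and a filter at the median, the mean of probe sets, every probe set by itself, only the TNF and CI arrays, the replicate block, a variance trend, and leaving out each array. Lists and named genes were recomputed in 21, without the setting of every probe set by itself. In that setting 9128 probe sets passed, 4816 higher in TNF and 4312 lower, with 363 and 106 beyond 2-fold. In the other 21 the count of passing genes stayed within 1.5 times of 5651, from 4168 without CI replicate 1 to 5953 without DEX replicate 2. The higher count ran from 2230 without CI replicate 2 to 3285 after centring, and the lower from 1724 without CI replicate 1 to 2885 with quantile normalization. With 1 array left out they ran from 2230 to 3085 and from 1724 to 2868. With the replicate block 5778 passed, 3035 higher and 2743 lower. With the block the ERK list had 11 higher and 10 lower in place of 5 and 11. The block raised the higher members of the interferon list from 3 to 5 and of the clock list from 1 to 2. It reduced the higher members of the amino acid response from 2 to 0 and of triglyceride assembly from 2 to 1, and the lower members of lipase control from 5 to 3.

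Of 332 named genes 295 passed, and 0 of these changed sign in the 21 settings. Taken by itself, another probe set of Insr, Lss, Clock and Gabpa passed in the opposite direction. A call was lost in at least 1 setting by 36 genes, most often by Lpl (14 settings), Tyrobp (11), Farsa (9) and Atf4 (8). Averaging probe sets moved 56 by over 1.5 times, Insr to 0.05, Lss to -0.10 and Clock to -0.08 among them. Signs turned in genes that did not pass: after centring Tnfrsf1a was at 0.021, Col3a1 at 0.001 and Scd1 at 0.009, with quantile normalization Tnfrsf1a at 0.016, Arntl at -0.037 and Il6ra at -0.048, and over averaged probe sets Arntl at -0.061 and Dbp at -0.021. With 1 array left out the ranges were -0.027 to 0.008 for Tnfrsf1a, -0.015 to 0.078 for Arntl, -0.016 to 0.137 for Ccl1, -0.085 to 0.026 for Col3a1, -0.043 to 0.067 for Dbp, -0.186 to 0.377 for Ddit3, -0.118 to 0.031 for Icam1, -0.051 to 0.053 for Il6ra, -0.047 to 0.004 for Scd1 and -0.431 to 0.039 for Xbp1; the cause was not tested. Over all settings, 1447 counts of list members stayed within 1.5 times, 43 rose and 64 fell beyond it, and 21 list medians moved by over 0.1. Array number and dim signal set the limits: the test of a CI group reduced to 1 array takes its spread from the others, and differences of genes near the filter are understated.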

Other observations

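Further genes among the 20 highest belong to no list. Tmem176a, a membrane protein, was at 1449 and 1414 in CI, 1969, 1722 and 1688 in control and 8340, 8539 and 7746 in TNF (2.51, SE 0.0713, limma adjusted p = 8.25e-12). Cyp7b1, which hydroxylates oxysterols, was at 107 and 73.4 in CI, 181, 142 and 139.6 in control and 478, 539 and 379 in TNF (2.18, averaged 1.39). In both genes CI lay below control and TNF above it without overlap.

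Among the 20 lowest, Pla2g2e, a secreted phospholipase, was at 466 and 504 in CI, 219.6, 194 and 207 in control and 139, 169 and 131 in TNF (-1.63, SE 0.117). The adhesion molecule Alcam was at 1019 and 1048 in CI, 479, 475 and 536 in control and 364, 368 and 390.5 in TNF (-1.43, averaged -0.91). Both had CI above and TNF below control. Abhd15, an adipocyte protein that binds the phosphodiesterase Pde3b, was at 2475 and 2521 in CI and 939.8, 915 and 1124 in TNF, and its value of -1.32 became -0.72 when its probe sets were averaged. Poln, a DNA polymerase, was at 821 and 793 in CI, overlapping control (580.4, 656 and 798), and at 255, 221 and 288 in TNF. The carbonic anhydrase Car2 was at 1222 and 1040 in CI and 409.8, 455 and 459.6 in TNF (-1.32), and BC023105 differed by -1.39.

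Of 5951 tested probe sets with no symbol or several, 967 (16.3%) passed, 435 higher in TNF and 532 lower, fewer than the 36.2% of genes taken at their brightest probe set. Of 3005 passing genes with a further tested probe set, 1657 had another that passed the same way and 186 one that passed the opposite way.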
